A study of Mus musculus with 6 samples.

Results

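The 34 genes described here encode the machinery that pulls chromosomes apart in mitosis: 12 kinesins, 10 kinetochore proteins, 4 spindle checkpoint proteins, 4 members of the chromosomal passenger complex and 4 spindle kinases and microtubule proteins. They were taken from a fixed list of symbols, which was chosen with earlier results of these data known. Of these, 34 of 34 were found among the 31053 Ensembl genes of the count tables. The cells came from lungs of C57BL6 mouse fetuses at E17, for which the labels name no allele, were dissociated with Liberase, frozen in DMSO and then grown on diluted Matrigel, a basement membrane extract. The medium for haematopoietic stem and progenitor cells contained mTPO, SCF, IL6, Flt3, VEGF and FGF, and was renewed on day 3. On days 4, 5 and 6 of culture, floating cells (suspension) were collected, and attached cells (adherent) were detached with Accutase and sorted for live cells with VE-cadherin, an endothelial adhesion protein. Each fraction gave 1 droplet library of transcript 3' ends on each day, 6 in all, and there was no unsorted adherent library, so attachment and sorting cannot be told apart.

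Kinesins are motor proteins that walk along microtubules or take them apart, and the mitotic ones build the spindle, move chromosomes and split the daughter cells. Kinetochores are the protein plates on centromeres to which spindle microtubules attach, and the spindle checkpoint holds a cell in mitosis until every kinetochore is attached. Most of these genes are transcribed in waves that peak in G2 and mitosis, so in a mixed cell population their messenger RNA is widely read as a mark of dividing cells. In a whole library, fewer cells in mitosis and less of these transcripts per dividing cell cannot be told apart.

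Genes of this phase are known to share a promoter element, the cell cycle genes homology region, bound by the MuvB complexes with B-Myb and FOXM1 or with their repressors, and often a CCAAT box bound by NF-Y. The RefSeq promoter table (GRCm38.p6, the assembly of mm10) held windows of 300 bases, from 250 before the start site to 50 after it, for 29 of the 34 genes, with more than 1 window for some, and none for Kif20a, Spc24, Aurkb, Incenp and Tpx2. TTTGAA or TTTAAA on either strand was in a window of 23 of the 29 (79.3%), against 8261 of 27025 genes in the whole table (30.6%). TTTGAA was there for 21 of 29 (72.4%, against 20.2% of all), CCAAT for 20 (69.0% against 41.1%), and CCAAT together with either of the 6-base motifs for 17 (58.6% against 12.2%). These are counts of letters and show neither a bound site nor a cause, and the windows were not matched for base composition. The 6 windows shown hold TTTGAA or TTTAAA and belong to the genes with the lowest p for the change per day in adherent cells, given below, so the motif was a condition for showing them. Capitals mark all of the motifs searched, and the start site follows the first 250 bases.
Plk1: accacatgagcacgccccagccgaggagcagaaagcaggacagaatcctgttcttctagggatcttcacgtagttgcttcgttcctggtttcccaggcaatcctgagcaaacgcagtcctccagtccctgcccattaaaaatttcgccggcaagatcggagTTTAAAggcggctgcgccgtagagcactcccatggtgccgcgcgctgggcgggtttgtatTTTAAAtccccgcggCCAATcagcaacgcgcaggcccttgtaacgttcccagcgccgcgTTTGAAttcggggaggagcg
Cenpe: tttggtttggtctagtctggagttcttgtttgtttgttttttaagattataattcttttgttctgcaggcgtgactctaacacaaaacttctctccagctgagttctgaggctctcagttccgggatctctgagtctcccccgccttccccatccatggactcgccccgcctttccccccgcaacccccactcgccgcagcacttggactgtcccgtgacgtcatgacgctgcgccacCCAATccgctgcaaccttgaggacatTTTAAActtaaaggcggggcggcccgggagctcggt
Aurka: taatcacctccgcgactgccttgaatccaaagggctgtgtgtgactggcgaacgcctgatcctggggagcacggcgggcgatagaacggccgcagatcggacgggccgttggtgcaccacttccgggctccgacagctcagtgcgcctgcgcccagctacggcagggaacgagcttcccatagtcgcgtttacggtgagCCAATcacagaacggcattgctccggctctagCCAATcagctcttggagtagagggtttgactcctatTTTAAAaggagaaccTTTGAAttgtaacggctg
Cenpf: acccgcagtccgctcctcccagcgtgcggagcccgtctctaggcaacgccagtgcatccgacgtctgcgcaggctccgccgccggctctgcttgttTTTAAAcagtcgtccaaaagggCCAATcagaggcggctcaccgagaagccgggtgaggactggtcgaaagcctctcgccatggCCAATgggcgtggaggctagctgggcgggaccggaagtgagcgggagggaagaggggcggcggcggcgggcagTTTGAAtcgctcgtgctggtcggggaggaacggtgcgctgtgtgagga
Kif20b: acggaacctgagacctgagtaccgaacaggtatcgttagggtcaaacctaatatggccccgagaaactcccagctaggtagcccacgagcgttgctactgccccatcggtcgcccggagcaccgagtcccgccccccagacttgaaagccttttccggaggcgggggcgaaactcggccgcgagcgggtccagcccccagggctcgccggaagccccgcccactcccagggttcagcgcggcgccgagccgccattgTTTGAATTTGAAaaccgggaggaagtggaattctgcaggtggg
Prc1: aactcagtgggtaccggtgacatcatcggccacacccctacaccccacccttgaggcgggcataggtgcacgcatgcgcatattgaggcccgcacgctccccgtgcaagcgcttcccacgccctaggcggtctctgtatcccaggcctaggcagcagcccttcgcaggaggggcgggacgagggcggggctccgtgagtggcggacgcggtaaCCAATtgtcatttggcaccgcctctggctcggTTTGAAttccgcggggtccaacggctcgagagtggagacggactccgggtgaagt
In genome order these are chr1:189688037-189688336 (Cenpf, minus strand), chr2:172370521-172370820 (Aurka, minus strand), chr3:135212313-135212612 (Cenpe, plus strand), chr7:80294201-80294500 (Prc1, plus strand), chr7:122159185-122159484 (Plk1, plus strand) and chr19:34922108-34922407 (Kif20b, plus strand). In each of the 6, the TTTGAA or TTTAAA nearest to the start site lay close to it, 29 bases before it in Plk1, 5 before it in Prc1, and at bases 3, 8, 15 and 18 of the transcript in Cenpf, Kif20b, Cenpe and Aurka. Plk1 also had TTTGAA at base 31 of the transcript and Aurka at base 33. A CCAAT lay upstream of that site in Cenpe (12 bases before the start), Prc1 (37), Aurka (19 and 51) and Cenpf (71 and 132), and in Plk1 between the site and the start (14). The Kif20b window had none. Kif20b instead had TTTGAA 2 times in direct succession.

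The sense gene counts of the libraries summed to between 36451255 and 57784974, and the 34 genes had between 133 and 10022 counts in each library, so no member had a library without counts. Levels are given as CPM, a gene's counts relative to its library's TMM-scaled total, and reads rather than molecules were counted. Of 10 endothelial markers 10 were lower in suspension (summed CPM 13.3 to 20.4 in suspension and 660 to 1722 in adherent cells), and Pecam1 was at 81.9, 156 and 53.7 CPM in adherent cells on days 4, 5 and 6. Fibroblast markers (summed CPM 1544 to 2491), macrophage markers (2709 to 7043) and neutrophil markers (226 to 982) were also present in the adherent libraries after the sort. No label tells if separate cultures were collected on each day. The 3 libraries of a fraction, from days 4, 5 and 6, serve as its replicates, and p-values therefore reflect how these libraries scatter. For each gene, edgeR estimates this scatter with help from all genes. In the test of the fractions, that scatter includes any change over the days. In the tests of the change per day, it is the departure from a straight line over the days. No fraction has a repeat library on any day, so the technical part of the scatter, which may be present, was not measured.

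In adherent cells the mitotic genes fell from day 4 to day 6, to a median of 49.0% of their day 4 level, while in suspension none passed the test for a change. CPM was lower on day 5 than on day 4 and lower again on day 6 in adherent cells for 34 of 34 genes, a pattern held by 21.9% of the 14912 genes tested, and in suspension for 12 of 34, against 24.9% of all genes. With edgeR (quasi-likelihood test, Benjamini-Hochberg adjusted over all genes) 25 of the 34 fell in adherent cells, where 3.52% of all genes did, and 0 rose, where 7.75% did. At an unadjusted p under 0.05 all 34 were lower, where 30.4% of all genes passed in either direction. The median adherent slope of the 34 was -0.52 on the log2 scale per day, between -0.73 and -0.27, beside a median of 0.05 over all genes. The median suspension slope was -0.06, between -0.26 and 0.08 with 23 of 34 below 0, beside -0.01 over all genes. In suspension 0 of 34 passed by edgeR (2 at an unadjusted p under 0.05, Cenpm and Kif22, where 16.5% of all genes passed) and 0 by DESeq2. Over all genes edgeR called 0.496% in suspension, 0.0939% higher and 0.402% lower. With plain library totals 33 of 34 suspension slopes were below 0, with a median of -0.12 beside -0.06 over all genes. By these totals 7 had an unadjusted p under 0.05 by edgeR, and 0 passed.

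**Figure D1:**
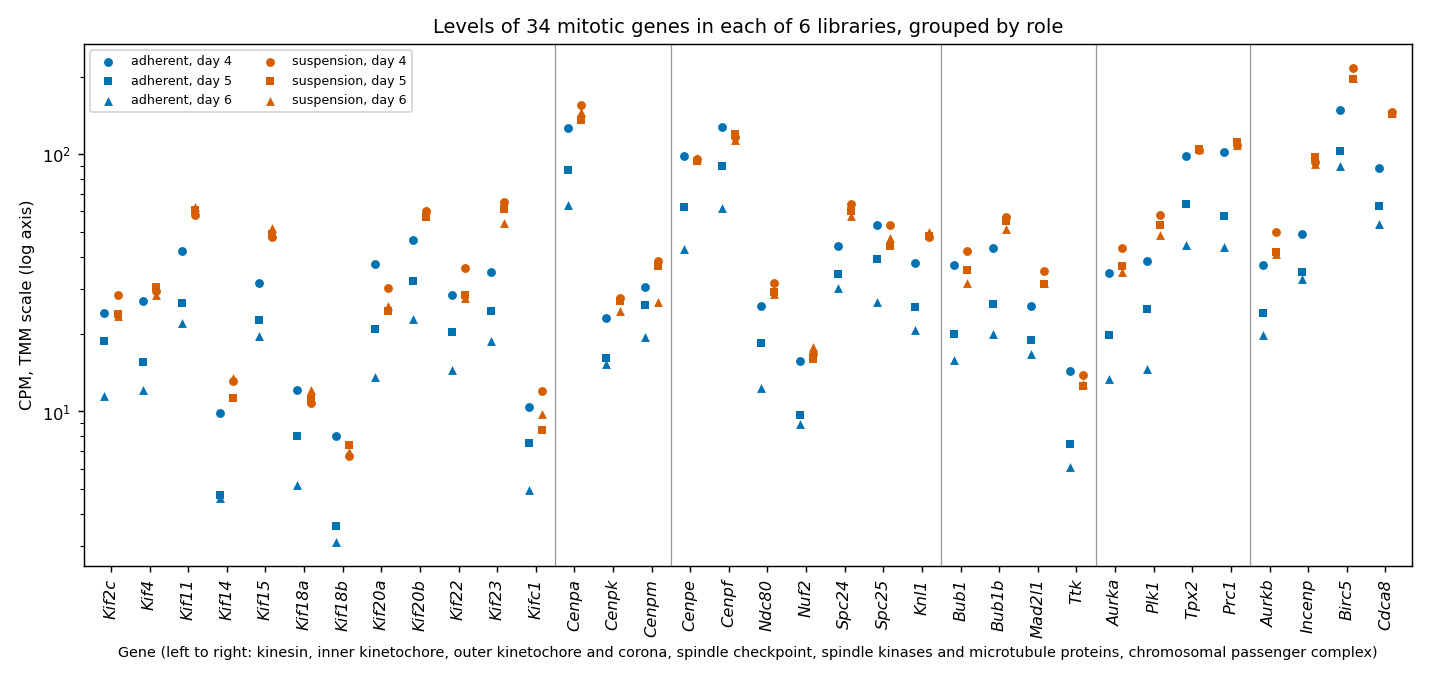
CPM of the 34 mitotic genes (log axis) in each library, adherent in blue and suspension in orange, with circles, squares and triangles for days 4, 5 and 6. Within each gene the blue points step down from day 4 to day 6, and the orange points lie closer together.

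Summed over the 34 genes, adherent libraries held 1611, 1078 and 826 CPM on days 4, 5 and 6, and suspension libraries 2012, 1901 and 1884. The adherent sum on day 6 was thus 51.3% of that on day 4, and the suspension sum 93.7%. As a plain share of all gene counts, the 34 genes took 0.180%, 0.117% and 0.0867% in adherent cells and 0.190%, 0.181% and 0.165% in suspension, so that without scaling the day 6 values were 48.3% and 86.8% of those on day 4. Single genes kept 36.5% (Kif20a) to 68.7% (Spc24) of their day 4 CPM in adherent cells, and 69.3% (Cenpm) to 112% (Kif18a) in suspension, with a median of 91.8%. For 25 of the 34 the relative drop was larger from day 4 to day 5 than from day 5 to day 6.

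The number of adherent calls changed with the libraries used. The fit of 3 days per fraction has 2 residual degrees of freedom, and 1 where a library is left out. When the adherent library of day 4, 5 or 6 was left out, 1, 34 and 2 genes passed instead of 25. In either direction these fits called 2.33%, 19% and 1.88% of all genes, against 11.3% with all libraries. Leaving out 1 suspension library (day 4, 5 or 6) gave 12, 9 and 12, with 3.02%, 2.64% and 3.12% of all genes in either direction. The slope was below 0 for 34 of 34 genes in each of these fits, with a median of -0.39 without the adherent library of day 4. As CPM of all 34 genes fell at each adherent step, these fits could hardly have given another direction. Plk1 was the gene that passed without the adherent library of day 4 (adjusted p = 0.0465 by edgeR).

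**Figure D2:**
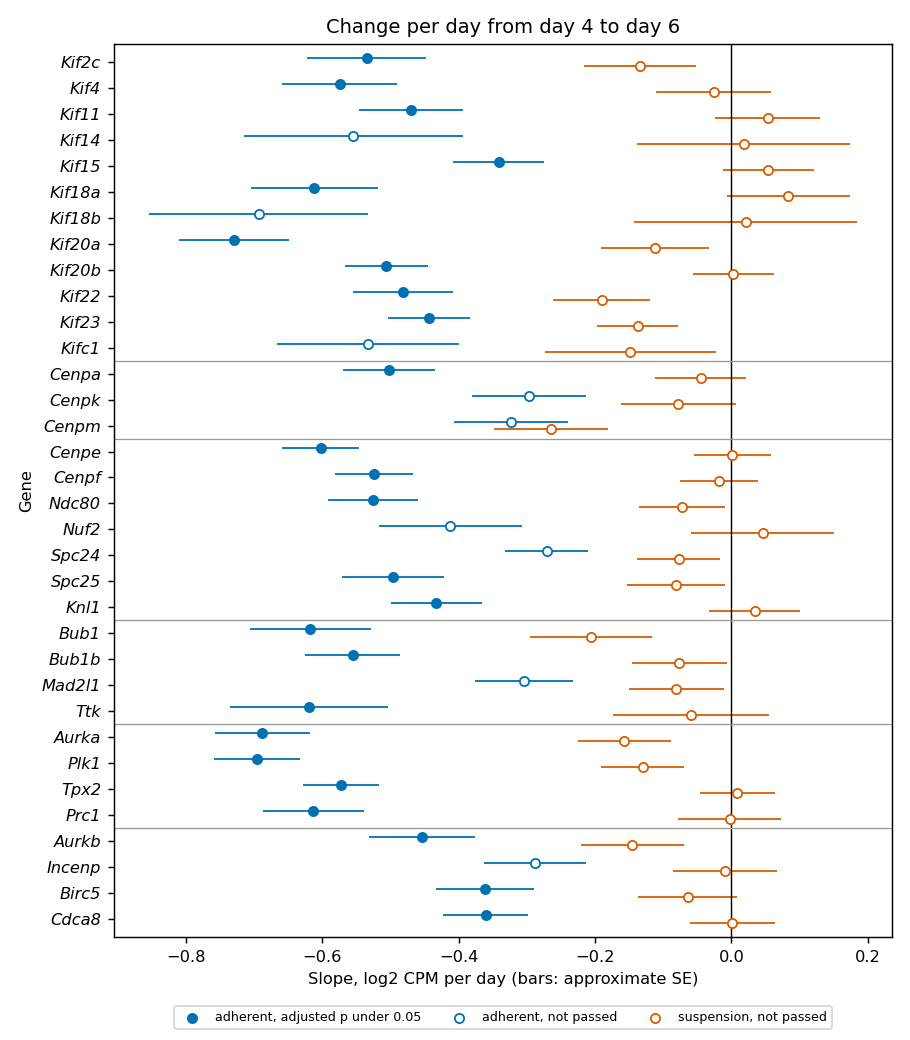
Slope of each gene in log2 CPM per day with its approximate standard error, adherent in blue and suspension in orange. Filled points passed at an adjusted p of 0.05, which 25 adherent and 0 suspension slopes did, and adherent slopes lie between -0.73 and -0.27.

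Spindle kinases and microtubule proteins had the steepest median slope of the role groups, -0.65 per day, and 4 of 4 fell in adherent cells. Plk1 (ENSMUSG00000030867, chromosome 7, 122159439 to 122169873 in mm10), the Polo-like kinase that drives mitotic entry and centrosome maturation, was at 38.3, 25.1 and 14.6 CPM in adherent cells on days 4, 5 and 6 and at 58.0, 53.1 and 48.4 in suspension. Its adherent level fell at each step and lay below all suspension libraries, with a slope of -0.70 ± 0.06 (SE) per day (adjusted p = 0.00980 by edgeR) against -0.13 ± 0.06 in suspension. Aurka, the kinase of spindle poles, went from 34.6 to 19.8 and 13.4 CPM in adherent cells (-0.69 ± 0.07 per day, adjusted p = 0.0106) and from 43.2 to 36.8 and 34.8 in suspension. Its activator Tpx2 (ENSMUSG00000027469, chromosome 2, 152847964 to 152895321) was level in suspension, at 104, 105 and 105 CPM, and fell in adherent cells from 98.0 to 63.8 and 44.3 (-0.57 ± 0.06 per day, adjusted p = 0.0102). For Tpx2 the fractions thus started close together and parted afterwards. Prc1, which bundles the microtubules of the spindle midzone, did the same, with 109, 111 and 108 CPM in suspension and 102, 57.7 and 43.7 in adherent cells (-0.61 ± 0.07 per day, adjusted p = 0.0143).

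Of the 12 kinesins 9 fell in adherent cells and the other 3, Kif14, Kif18b and Kifc1, had slopes of -0.53 to -0.69 with adjusted p from 0.0530 to 0.0842. These 3 were among the kinesins with the fewest counts, and their slopes had standard errors of 0.13 to 0.16. Kif20a, which carries the passenger complex to the midzone, had the lowest slope of all 34 genes, with 37.3, 20.9 and 13.6 CPM in adherent cells (-0.73 ± 0.08 per day, adjusted p = 0.0120) and 30.2, 24.5 and 25.8 in suspension. Its adherent library of day 4 was above all 3 suspension libraries and that of day 6 below them. Of the reads on Kif20a 32.3% lay on its antisense strand, where Cdc23 overlaps it, and they were not counted here. Kif20b, a kinesin of cytokinesis, was at 46.3, 32.1 and 23.0 CPM in adherent cells (-0.51 ± 0.06 per day, adjusted p = 0.0143) and at 60.3, 57.2 and 60.5 in suspension, with no overlap. Kif11, the motor that pushes spindle poles apart, fell from 42.1 to 26.3 and 22.0 CPM in adherent cells and was at 58.0, 60.6 and 62.4 in suspension. Kif15, which can stand in for Kif11, went from 31.6 to 22.7 and 19.7 CPM (-0.34 ± 0.07 per day, adjusted p = 0.0372) and was at 47.8, 49.1 and 51.5 in suspension. Kif23, a part of the centralspindlin complex of the cell midbody, was at 34.8, 24.6 and 18.9 CPM in adherent cells (-0.44 ± 0.06 per day, adjusted p = 0.0173) and at 65.3, 61.0 and 53.9 in suspension. The kinesins that fell also included Kif2c, which takes microtubule ends apart (-0.54), the chromosome-bound motors Kif4 (-0.57) and Kif22 (-0.48), and Kif18a, which damps chromosome movements at the metaphase plate (-0.61). Kif18a was at 12.1, 8.03 and 5.19 CPM in adherent cells and at 10.8, 11.2 and 12.1 in suspension, so the order of the fractions turned between day 4 and day 5. Of 25 transport kinesins and partners, which carry cargo outside mitosis, 2 rose in adherent cells and 0 fell, near the 7.75% and 3.52% of all genes, and their difference from the mitotic kinesins was not tested. These 2 were Kif3a (48.1, 56.8 and 70.4 CPM) and the light chain gene Klc4 (9.51, 15.5 and 17.6 CPM).

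At the kinetochore, 5 of 7 genes of the outer plate and corona fell in adherent cells and 1 of 3 inner ones. Cenpe (ENSMUSG00000045328, chromosome 3, 135212537 to 135273611), a kinesin of the corona that brings chromosomes to the spindle equator, was level in suspension at 96.2, 93.8 and 96.3 CPM. In adherent cells it began at 98.3 and was at 62.1 and 42.7 CPM on days 5 and 6 (-0.60 ± 0.06 per day, adjusted p = 0.00980). Cenpf, which links kinetochores to microtubules and motors, was at 127, 90.2 and 61.6 CPM in adherent cells (-0.52 ± 0.06 per day, adjusted p = 0.0119) and at 116, 119 and 113 in suspension. For both genes the adherent library of day 4 lay above all suspension libraries and the later ones below. The subunits of the NDC80 complex, the main microtubule hook of the kinetochore, all had slopes below 0: Ndc80 at -0.53 ± 0.07 and Spc25 at -0.50 ± 0.07 passed, and Nuf2 at -0.41 ± 0.10 (adjusted p = 0.0646) and Spc24 at -0.27 ± 0.06 (adjusted p = 0.0501) did not. Differences between these subunits were not tested. Spc24 had 44.1, 34.2 and 30.3 CPM in adherent cells and 63.9, 59.9 and 57.4 in suspension, and kept the largest share of its day 4 level, 68.7%. Knl1, the scaffold on which checkpoint proteins gather, fell at -0.43 ± 0.07 per day (adjusted p = 0.0224).

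Cenpa, the histone H3 variant that marks centromeres, was the inner kinetochore gene that fell, with 127, 86.8 and 63.2 CPM in adherent cells (-0.50 ± 0.07 per day, adjusted p = 0.0170) against 156, 135 and 146 in suspension. Cenpk and Cenpm belong to the network of proteins that sits on centromeric chromatin throughout the cell cycle, and had slopes of -0.30 ± 0.08 and -0.32 ± 0.08 (adjusted p = 0.0792 and 0.0665). Cenpm was at 38.4, 36.8 and 26.6 CPM in suspension, with the lowest suspension slope of the 34 genes (-0.26 ± 0.08, adjusted p = 0.222), and its slopes in the fractions differed by -0.06 ± 0.12. Cenpk had 36.7% of its reads on the antisense strand, where it overlaps Ppwd1.

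Of the 4 checkpoint genes 3 fell in adherent cells. Bub1b (BubR1), which blocks the anaphase-promoting complex, was at 43.1, 26.2 and 20.0 CPM (-0.56 ± 0.07 per day, adjusted p = 0.0148), below its suspension levels of 56.8, 54.8 and 51.1. Bub1, the kinase that recruits it, had -0.62 ± 0.09 per day and Ttk (Mps1), the kinase that starts checkpoint signalling, -0.62 ± 0.12 (adjusted p = 0.0196 and 0.0331). Mad2l1, whose product captures the activator of the anaphase-promoting complex, was at 25.6, 19.0 and 16.8 CPM and did not pass (-0.30 ± 0.07, adjusted p = 0.0543).

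Of the 4 genes of the chromosomal passenger complex, which corrects wrong attachments and guides cytokinesis, 3 fell in adherent cells, and the median slope was -0.36 per day. Aurkb (its kinase), Birc5 (survivin) and Cdca8 (borealin) fell in adherent cells at -0.45 ± 0.08, -0.36 ± 0.07 and -0.36 ± 0.06 per day (adjusted p = 0.0268, 0.0383 and 0.0277), and the scaffold Incenp had -0.29 ± 0.08 (adjusted p = 0.0681). Birc5, which is also known as an inhibitor of apoptosis, was at 149, 103 and 90.3 CPM in adherent cells and 217, 196 and 198 in suspension. Cdca8 was at 88.1, 63.1 and 53.5 CPM in adherent cells and 146, 143 and 146 in suspension. Incenp (ENSMUSG00000024660, chromosome 19, 9872296 to 9899551) was at 49.0, 35.0 and 32.9 CPM and at 93.2, 97.8 and 91.9. For these genes each suspension library lay above each adherent one. By edgeR's test of the fractions 4 of 4 were higher in suspension, where 27.1% of all genes were higher and 29.7% lower. The log2 ratios were 0.71 ± 0.24 for Aurkb, 0.84 ± 0.20 for Birc5, 1.09 ± 0.19 for Cdca8 and 1.28 ± 0.17 (SE) for Incenp (adjusted p = 0.0434, 0.0112, 0.00367 and 0.00143 by edgeR).

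The slopes of the fractions were then compared directly. The adherent slope was below the suspension slope for 34 of 34 genes, by a median of 0.46 log2 units per day (difference -0.46), beside a median difference of 0.07 over all genes. None of the 34 passed by edgeR after Benjamini-Hochberg adjustment, where 0.516% of all genes did (0.0536% with the lower slope in adherent cells), although 29 had an unadjusted p under 0.05 (19.6% of all genes did). The lowest adjusted p was 0.0599, for Cenpe (-0.60 ± 0.08) and Tpx2 (-0.58 ± 0.08), followed by Plk1 (-0.57 ± 0.09, adjusted p = 0.0681) and Cenpf (-0.51 ± 0.08, adjusted p = 0.0700). The call depended on the test. DESeq2's Wald test called 17 of the 34 lower in adherent cells, with 6.93% of all genes. An edgeR fit with the collection day as a block, which leaves fewer residual degrees of freedom, called 13, with 6.28% of all genes. Without the block, edgeR called 14 with no filter on low counts and 13 without the adherent library of day 5 (4.57% and 5.63% of all genes). It called 2 of 32 with at least 10 CPM in 3 libraries (1.31%), and 0 without any other single library (0% to 0.594%). These shares of all genes are for either direction, while the counts are of lower slopes in adherent cells. After adjustment over all genes a different change per day was therefore not shown by the test chosen here. The alternatives that called any of the 34 called them in 1 direction, but as refits of the same libraries they are not separate evidence.

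The gap between the fractions on the same day was small on day 4 and larger later. Suspension CPM was above adherent CPM for 27 of 34 genes on day 4 and for 34 of 34 on days 5 and 6, and the median ratio was 1.24, 1.74 and 2.28. The 7 genes with more in adherent cells on day 4 were Kif18a, Kif18b, Kif20a, Cenpe, Cenpf, Spc25 and Ttk, with ratios of 0.809 to 0.997. The ratio widened at both steps for 30 genes, against 18.7% of all genes, and the other 4 were Kifc1, Cenpk, Cenpm and Incenp. On day 6 it ran from 1.37 for Cenpm to 3.32 for Plk1. These day 4 ratios depend on the scaling, since in plain shares of counts the 34 genes summed to 1.06, 1.54 and 1.90 times as much in suspension, and the outer kinetochore genes and spindle kinases summed to less in suspension on day 4 (0.895 and 0.972). As a share of counts without globin and mitochondrial genes, the 34 genes together were lower in suspension on day 4 (0.951 times the adherent share), and higher on days 5 and 6 (1.45 and 1.81 times). By that share 5 of the 6 role groups were lower in suspension on day 4, and the passenger complex was higher (1.19 times).

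**Figure D3:**
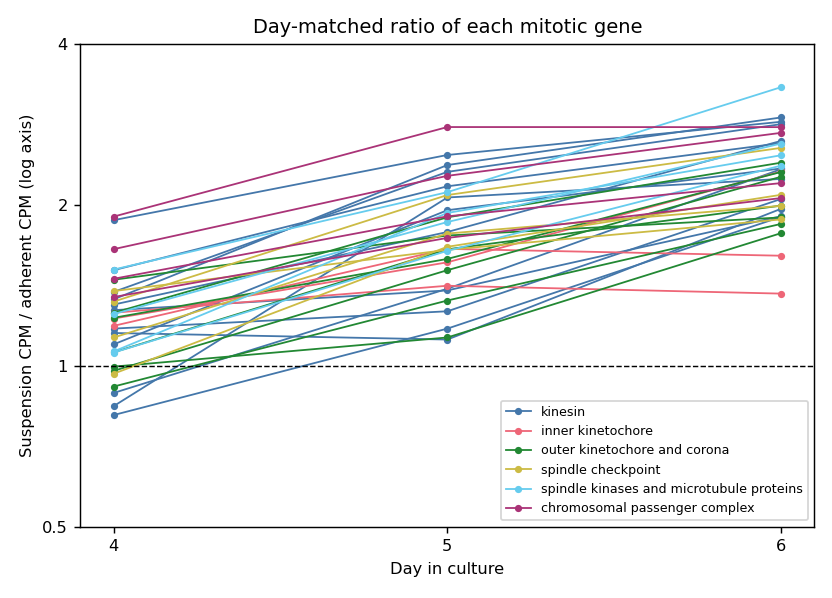
Ratio of suspension to adherent CPM (log axis) of each gene on days 4, 5 and 6, coloured by role, with a dashed line at 1. On day 4 the lines start between 0.809 and 1.90, and on day 6 they end between 1.37 and 3.32.

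Over the 3 days together, 15 of the 34 genes were higher in suspension by edgeR and 0 lower, where 27.1% of all genes were higher and 29.7% lower. The median log2 ratio was 0.67, between 0.17 and 1.28, beside a median of all genes at 0.00. With plain library totals 33 of 34 stayed above 0 and Kif20a was at -0.0814. Libraries of the fractions did not overlap for 22 genes, with all suspension libraries above, as for 33.4% of all genes. Besides Incenp and Cdca8, the lowest p belonged to Kif15 (1.003 ± 0.183) and Kif23 (1.20 ± 0.23), with adjusted p = 0.00450 and 0.00530. The 7 genes with more in adherent cells on day 4 did not pass, among them Kif20a (0.17 ± 0.35, adjusted p = 0.710) and Cenpf (0.32 ± 0.25, adjusted p = 0.303). The count of 15 was 22 with the collection day as a block, 8 with at least 10 CPM in 3 libraries and 6 with plain library totals, which moved the median of all genes to -0.24 and split all calls into 2904 higher and 5555 lower instead of 4044 and 4423. In either direction the block called 56.4% of all genes and the 10 CPM filter 58.8% of those it kept. Plain totals called 56.7%, against 56.8% in the fit that called 15. Fits lacking the adherent library of day 4, 5 or 6 called 31, 6 and 12 of the 34, and 56.6%, 44.4% and 55.9% of all genes. Fits lacking a suspension library (day 4, 5 or 6) called 6, 5 and 7, and 50.1%, 42.8% and 46.4% of all genes. These shares, too, are for either direction.

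Other genes of the division cycle were lower with time in adherent cells in smaller proportion or by smaller slopes, and these differences between lists were not tested. Of 18 cyclin, Cdk1 and mitotic exit genes 8 fell (median slope -0.45), among them Top2a (211, 140 and 109 CPM in adherent cells and 267, 287 and 289 in suspension), a topoisomerase that untangles chromosomes, and Ube2c (199, 160 and 91.4 CPM), a ubiquitin enzyme of mitotic exit. Cdk1 and Ccnb1, the kinase and cyclin that start mitosis, fell at -0.50 ± 0.08 and -0.50 ± 0.06 per day (adjusted p = 0.0209 and 0.0144). Mki67, a protein that coats mitotic chromosomes, did not pass (117, 87.9 and 84.3 CPM, -0.24 ± 0.07 per day, adjusted p = 0.0899).

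Of 23 other spindle and cytokinesis genes 15 fell (median -0.49), among them Hmmr (85.4, 54.8 and 44.9 CPM) and Tacc3 (43.6, 30.6 and 22.0 CPM), which act on spindle microtubules. Of 33 other kinetochore and checkpoint genes 9 fell (median -0.28), among them Hjurp, the chaperone that loads Cenpa, and the inner kinetochore gene Cenpw. Of 16 condensin and cohesin genes 5 fell (median -0.25), among them the condensin cores Smc2 (133, 87.9 and 72.6 CPM) and Smc4 (174, 127 and 107 CPM). Of 24 DNA replication genes, which act in S phase, 11 fell (median -0.31), among them Rrm1 and Rrm2 (70.8, 38.2 and 27.8 CPM), subunits of the enzyme that makes DNA building blocks. In none of these lists did a gene rise in adherent cells or pass in suspension by edgeR.

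Among 19 regulators of mitotic gene transcription 4 fell in adherent cells, among them E2f8, an E2F repressor (18.3, 9.02 and 6.34 CPM), and Tfdp1, the partner of the E2Fs (36.7, 26.5 and 22.9 CPM). Foxm1, the activator named above for the shared promoter element, was at 10.0, 5.97 and 5.24 CPM in adherent cells and at 8.23, 8.53 and 9.82 in suspension (-0.47 ± 0.12 per day, adjusted p = 0.0662). Mybl2 (B-Myb) was at 3.23, 2.67 and 1.49 CPM in adherent cells and at 4.72, 6.27 and 4.69 in suspension (-0.55 ± 0.20, adjusted p = 0.138). Neither passed. Foxm1 had 2090 and Mybl2 1005 sense counts over all libraries, and whether low counts played a part was not tested.

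**Figure D4:**
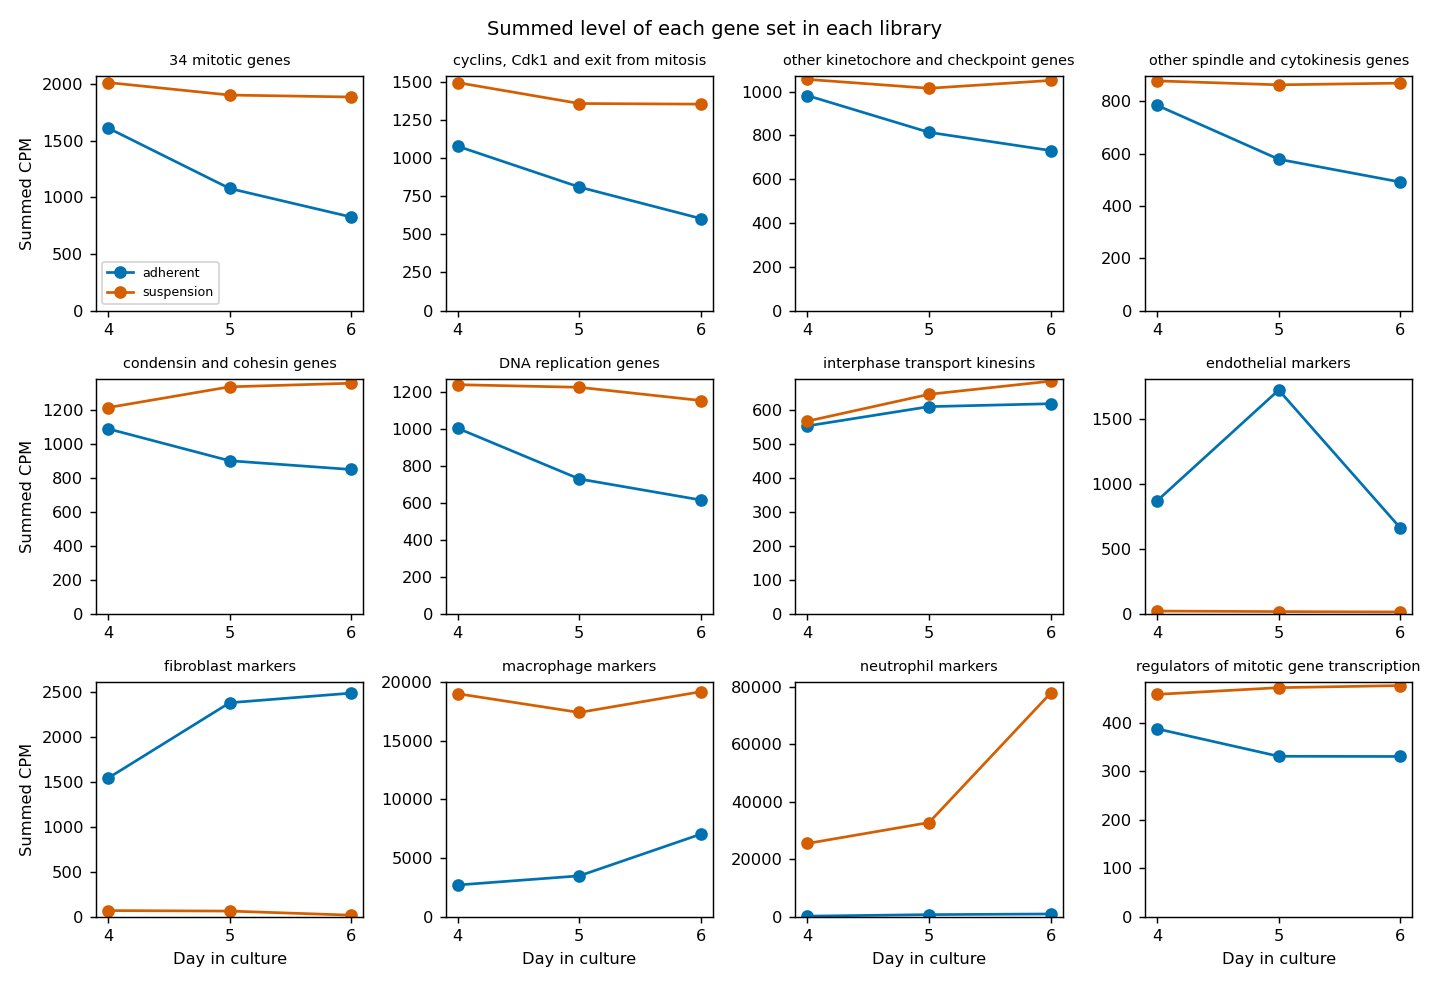
Summed CPM (axes from 0) of the 34 mitotic genes, of other listed gene sets and of cell type markers by day, adherent in blue and suspension in orange. The 34 genes go from 1611 to 826 CPM in adherent cells and from 2012 to 1884 in suspension.

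Markers of other cells moved in the adherent libraries over the same days. Of 10 macrophage markers 8 rose (summed CPM 2709, 3488 and 7043, the lysozyme gene Lyz2 from 1526 to 2190 and 4181 CPM and the complement gene C1qb from 372 to 475 and 1108), and 0 of 10 were at 0 in any library. Of 10 neutrophil markers 3 rose (summed CPM 226, 752 and 982), among them S100a9 (99.7, 351 and 496 CPM) and Retnlg (0.0923, 5.01 and 14.7 CPM), and of 10 fibroblast markers 3 rose (1544, 2384 and 2491), among them the matrix genes Dcn (22.0, 60.6 and 103 CPM) and Mfap4 (12.4, 26.4 and 155 CPM). Ptprc (CD45), carried by most blood cells, rose from 12.5 to 20.1 and 38.4 CPM (0.81 ± 0.06 per day, adjusted p = 0.00967). Endothelial markers were highest on day 5 (869, 1722 and 660 summed CPM), none of the 10 passed, Cldn5, a tight junction gene, was at 197, 458 and 186 CPM, and Cdh5, the gene of the sorted protein, was at 141, 226 and 79.0 CPM. In suspension the neutrophil markers went from 25529 to 32812 and 77844 summed CPM, where 1 of 10 passed, while the mitotic sum changed from 2012 to 1884. The 7 erythroid markers tested summed to 2.03, 4.71 and 2.24 CPM in adherent cells, and the globin gene Hbb-bs was at 0 on day 6. In suspension 4 of 10 endothelial markers, Cldn5 among them, were at 0 in at least 1 library. The part of these markers in the values of the mitotic genes was not tested.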

How the data were processed

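Droplet libraries read from transcript 3' ends were made from suspension and adherent cells on days 4, 5 and 6. The submitters' processing notes name STARsolo, Cell Ranger, bcl2fastq and the build mm10. Their versions were not given in the sources used here, nor was an annotation. Each of the deposited files holds read counts per gene for whole libraries, with 4 summary lines, for either, sense and antisense strand. They have no cell axis and no correction for molecular identifiers, so errors of counting cover reads only. Sense counts were used. GENCODE M21 named 31011 of the 31053 identifiers, and of 209 listed genes Ahsp was not analysed here and Kif27, Alas2 and Slc4a1 did not pass the filter on low counts, so that 4 were not tested.

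In R 4.3.3, edgeR 4.0.16 (with limma 3.58.1) kept 14912 genes by its filterByExpr rule, and libraries were scaled by TMM. Quasi-likelihood tests compared the fractions (4 residual degrees of freedom), and the slopes per day and their difference in 1 fit (2 degrees), adjusted by Benjamini-Hochberg at 0.05. Standard errors are approximate and were taken from the log2 value and its F statistic. The pipeline was tested on simulated data. No test was made over the list.

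Libraries of 1 day share that day in the labels, and their deviations from the fraction means correlated across genes at 0.318, 0.095 and 0.253 (-0.285 to 0.022 for different days). The deviations of a fraction's libraries cancel out, so the values for different days are not independent of those for the same day. Alternatives were DESeq2 1.42.0, its size factors, other filters, either strand, no globin and mitochondrial genes, the day as a block, each library left out and, added after seeing the data, plain library totals. The members, the lists and the tests were chosen with earlier results of these data known. The genes given in full were those with the lowest p for the adherent slope (8), the slope difference (4) and the fractions (4), and the gene with the highest CPM of each role. From each other list the 2 genes with the highest CPM among those past the adherent test were named, or 1 where none passed, with Mki67, Top2a, Cdk1, Ccnb1, Foxm1, Mybl2, Cdh5, Pecam1 and Ptprc. Further genes were named after their values were seen.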

Additional observations from a re-analysis of the deposited data

How the results depend on the processing

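Among the 15 genes given in full, 103 of 105 adherent slopes kept direction and call in the fits that left out no library, and 2 gained the call. With a library left out, 40 of 90 lost it. The number of the 34 genes called lower in adherent cells ran from 1 to 34 with 1 library left out, with 70 to 999 of all genes lower and 218 to 1903 higher. In suspension 0 to 176 of all genes were then higher and 0 to 371 lower. For the slope difference 0 to 13 of the 34, 0 to 148 of all genes lower and 0 to 711 higher were called. For the fractions 5 to 31 of the 34 were called, with 42.8% to 56.6% of all genes called in either direction. The log2 ratio of Kif20a between the fractions ran from -0.11 to 0.64 with 1 library left out and was -0.0814 with plain library totals. With at least 10 CPM in 3 libraries, which tests 32 of the 34, 8 of them were higher in suspension (2365 of all genes higher and 2741 lower) and 2 had a lower slope in adherent cells (15 of all genes). With plain totals 6 were higher in suspension, and 56.7% of all genes were called in either direction. By these totals 130 of all genes fell in suspension, and the slope difference called 12 and 1 of all genes. No filter gave 1738 higher and 908 lower adherent slopes, 204 and 605 suspension slopes, and 847 and 159 slope differences, with 14 of the 34. DESeq2 gave 901 lower adherent slopes, 189 and 613 suspension slopes, and 825 and 208 slope differences, with 17 of the 34. With the collection day as a replicate block the slope difference called 812 and 124 genes, with 13 of the 34. With that block 22 of the 34 were higher in suspension, where 56.4% of all genes were called in either direction. Reads on either strand gave 4 lower slope differences, and leaving out globin and mitochondrial genes 0 and 0. The cause of these changes was not tested. The slopes rest on 2 or fewer residual degrees of freedom, and edgeR's estimate of their spread also draws on all genes.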

Other observations

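Per CPM of Mki67, the adherent libraries held 13.8, 12.3 and 9.79 CPM of the 34 mitotic genes on days 4, 5 and 6, and the suspension libraries 7.71, 7.03 and 7.07, with no overlap. Against the 24 DNA replication genes the ratio was 1.61, 1.48 and 1.34 in adherent cells and 1.62, 1.55 and 1.63 in suspension, and the fractions overlapped. Mki67 itself was higher in suspension at 1.46 log2 by edgeR (adjusted p = 0.000697), more than any of the 34 mitotic genes, whose log2 ratios reached 1.28. These differences between genes were not tested.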
